A study of Mus musculus with 8 samples.

Results

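Homeobox transcription factors of the Pax, LIM (Lhx and Lmx), Six2-type, NK, Irx, Meis, Pbx, Msx, En, Emx, Barx, Cdx, Gbx, Prrx and Alx families, together with Satb1, were examined in newborn mouse epidermis lacking EED. The 56 genes were chosen by symbol: each is a gene to which at least 1 probe of the array maps through its RefSeq accession, and the rule uses no measured value. They are 56 of the 36799 named genes and other targets on the array, and 36 of them were among the 23199 that were bright enough to be tested. Genes whose probe stood above background in control epidermis were set against genes whose probe did not.

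The series compared dorsal epidermis of P0 (newborn) C57BL/6 mice in which Eed was deleted by Cre driven from the Krt14 promoter (EED cKO; K14-Cre; EED flox/flox) with control epidermis, whose alleles the labels do not give. Epidermis was peeled from the dermis after dispase, dissociated with trypsin and used for total RNA, with 4 arrays per genotype that the labels call biological replicates. Each array carried 1 epidermal sample and Universal Mouse Reference RNA in the other dye, the sample being in Cy3 on 2 arrays and in Cy5 on 2 arrays of each genotype. Because K14-Cre acts in the epithelial lineage, cells of other origin in the dissociated epidermis were not targeted.

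Most proteins of these families bind DNA through a homeodomain. As a group they set the identity of body regions, organs and cell types. In Pax proteins the paired domain is the main DNA contact, and Satb1 pairs a homeodomain with CUT-type domains and acts in chromatin folding. EED is a core subunit of Polycomb repressive complex 2 (PRC2), which places trimethylation on lysine K27 of histone H3, and genes for developmental regulators, many of them homeobox genes, are typical PRC2 targets in cell types that do not use them.

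All values below are log2 ratios of sample over reference, so a difference is EED cKO minus control on that scale and a level belongs only to its own probe. The normalization adds an offset of 50 to every spot signal, which draws the ratios of dim probes toward 0. Eed itself averaged -1.80 ± 0.17 (SD, n = 4) in EED cKO and -0.35 ± 0.13 in control, a log2 difference of -1.46 (limma, adjusted p = 2.09e-05). The sample channel was well above background for 50.5% to 64.5% of probes, with lower shares on the Cy3 arrays of both genotypes. All 7 keratinocyte markers examined stood above background on every control array, and their mean ratio ran from 4.03 to 4.53 in EED cKO and from 3.91 to 4.54 in control. Of these markers only Trp63 was called, at -0.59 (limma, adjusted p = 0.00344). Genes of the Y chromosome were high on control replicates 2 and 3 only, with a mean ratio of 1.19 and 1.02 against -1.51 to -1.31 on the other 6 arrays, so sex was not balanced between genotypes.

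None of the 36 tested homeobox genes passed both an adjusted p below 0.05 and a 2-fold change, against 283 (1.22%) of everything tested, of which 258 (1.11%) were higher and 25 (0.108%) lower. At an adjusted p below 0.05 alone, 15 did: 11 rose and 4 fell, and 21 did not pass. Among the 11 rises, Lmx1a, Pax6 and Six2 were bright enough to be tested only through their EED cKO arrays, so the filter itself favoured a rise for them. Over everything tested, 5052 (21.8%) passed: 2749 (11.8%) rose and 2303 (9.93%) fell by that rule. At an unadjusted p below 0.05, 23 of the 36 passed, against 35.9% of everything tested. The median difference of the 36 was 0.10, and that of everything tested was 0.02. These counts past both limits depend on the offset: with an offset of 10, 5 of the 36 genes passed both, all higher, against 1.97% of everything tested that were higher, and with the Feature Extraction ratio, computed with no offset, 6 did, against 2.55%. With each array centred on its median in place of loess, the 15 became 12, with 7 higher and 5 lower. The share of everything tested was not computed for that count. Under this centring the median difference was -0.04 over everything tested and 0.06 over the 36. In whole epidermis, a lower share of cells expressing a gene and less RNA per cell cannot be told apart.

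The genes that rose were Pax3, Six2, Lmx1a, Alx1, Lhx3, Meis1, Barx2, Nkx2-5, Pax6, Nkx2-2 and Nkx6-1, and those that fell were Irx2, Satb1, Pbx3 and Irx4. All 15 had the same direction within the Cy3 arrays and within the Cy5 arrays. The arrays of the genotypes did not overlap for 11 of the 15, and they overlapped for Barx2, Lhx3, Meis1 and Pbx3. Between arrays of the same replicate number, which also share a dye, the difference had one sign in all 4 numbers for each of the 15 genes, including these 4. The 15 genes were picked by their adjusted p on the same arrays, so agreement of sign within dye or number is no separate evidence. Its share over everything tested was not computed. The exact permutation tests given below take neither dye nor number into account. Among everything tested, the arrays did not overlap for 9.69% with EED cKO higher and for 7.48% with EED cKO lower. Among the 36 homeobox genes, 9 were separate and higher and 4 were separate and lower, which includes En2 and Six5, both of which missed the adjusted threshold.

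**Figure D1:**
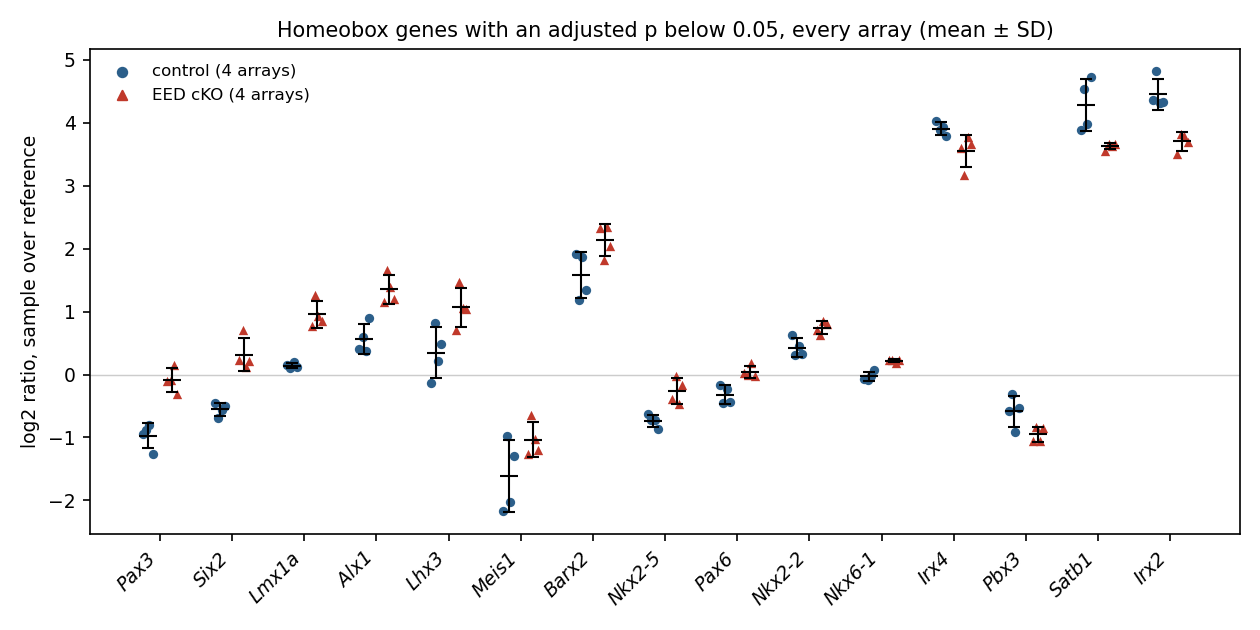
Log2 ratio of sample over reference (vertical axis) on each of the 4 control arrays (circles) and 4 EED cKO arrays (triangles) for the 15 homeobox genes with an adjusted p below 0.05, ordered by their difference; bars show the mean ± SD. The arrays of the genotypes are separate for 11 of the 15 genes and overlap for Lhx3, Meis1, Barx2 and Pbx3.

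The RefSeq promoter table (GRCm38.p6), which holds 250 bases before and 50 bases after a gene's start, listed 45 of the 56 genes, each read at its first listed start. A window was called CpG-rich when its GC content was above 50% and its observed over expected CpG was above 0.6, a property that PRC2-bound promoters often have in mammals. By this rule 28 of the 45 windows (62.2%) were CpG-rich, against 9162 of 27025 (33.9%) over all genes of the table. CpG-rich windows belonged to 4 of the 8 listed genes that rose, 2 of the 3 that fell, 11 of the 16 tested without a call and 11 of the 18 too dim to be tested. A window held a median of 18 CG pairs over the 45 genes and 7 over all genes. The windows of a gene that was at background in control, a gene that was partly above it and a gene that was high there are printed below, each 5′ to 3′ on the strand of its gene with every CG pair in capitals.
Lmx1a (chr1:167689308-167689607, + strand, 12 CG): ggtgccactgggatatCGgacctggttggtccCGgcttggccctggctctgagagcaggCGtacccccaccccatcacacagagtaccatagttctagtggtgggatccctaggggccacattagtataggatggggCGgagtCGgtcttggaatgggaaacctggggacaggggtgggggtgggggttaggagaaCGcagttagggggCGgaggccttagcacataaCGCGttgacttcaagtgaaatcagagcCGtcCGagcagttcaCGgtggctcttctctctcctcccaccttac
Six2 (chr17:85688205-85688504, - strand, 37 CG): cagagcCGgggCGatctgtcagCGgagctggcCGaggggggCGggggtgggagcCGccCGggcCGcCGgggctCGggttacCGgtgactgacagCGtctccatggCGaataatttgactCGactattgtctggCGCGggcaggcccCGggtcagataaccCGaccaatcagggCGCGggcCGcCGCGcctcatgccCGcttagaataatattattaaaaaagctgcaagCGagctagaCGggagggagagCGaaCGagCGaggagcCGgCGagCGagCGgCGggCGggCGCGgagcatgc
Irx2 (chr13:72628570-72628869, + strand, 25 CG): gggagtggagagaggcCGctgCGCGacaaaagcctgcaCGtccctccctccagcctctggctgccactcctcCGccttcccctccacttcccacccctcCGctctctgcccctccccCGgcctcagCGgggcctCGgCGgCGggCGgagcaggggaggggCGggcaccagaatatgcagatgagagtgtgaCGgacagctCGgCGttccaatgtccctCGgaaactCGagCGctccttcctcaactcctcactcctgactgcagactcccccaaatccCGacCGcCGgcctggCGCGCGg
The Lmx1a window had an observed over expected CpG of 0.464 and was not CpG-rich, while the Six2 window reached 1.13 and the Irx2 window 0.723. Of these 3 windows, the densest and the least dense in CG pairs both belonged to genes that rose.

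Detection in control epidermis divided the 56 genes into 30 whose probe was well above background on all 4 control arrays, 11 with 1 to 3 such arrays and 15 with none. The 30 detected genes were all tested, and 7 rose and 4 fell. Of the 11 intermediate genes 4 were tested and 2 rose. Of the 15 genes at background 2 were tested and both rose. A gene at background in control could be tested only where it stood above background on at least 3 EED cKO arrays, so those calls had to lie on the higher side. Six2 and Nkx3-2, intermediate genes above background on 2 control arrays each, also met the filter through their EED cKO arrays alone. For such genes the filter favoured a rise without fixing it, and Nkx3-2 differed by -0.06. The p-values given below for Lmx1a, Pax6 and Six2 take no account of this selection. Without the filter their adjusted p (limma) was 0.00195, 0.00559 and 0.0035. Over all members of each class, tested or not, the median difference was 0.07, 0.06 and 0.05, against 0.01, 0.006 and 0.004 over all genes of the same class. The order of these medians depends on the offset. With an offset of 10 the median was 0.096 for genes detected on all 4 control arrays and 0.14 for genes detected on none, and with the Feature Extraction ratio it was 0.085 and 0.64. Leaving out 1 array gave 0.034 to 0.12 for the detected class and 0.032 to 0.065 for the class at background. The 4 falls were all genes detected on all 4 control arrays, and a gene at background in control cannot be measured to fall.

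**Figure D2:**
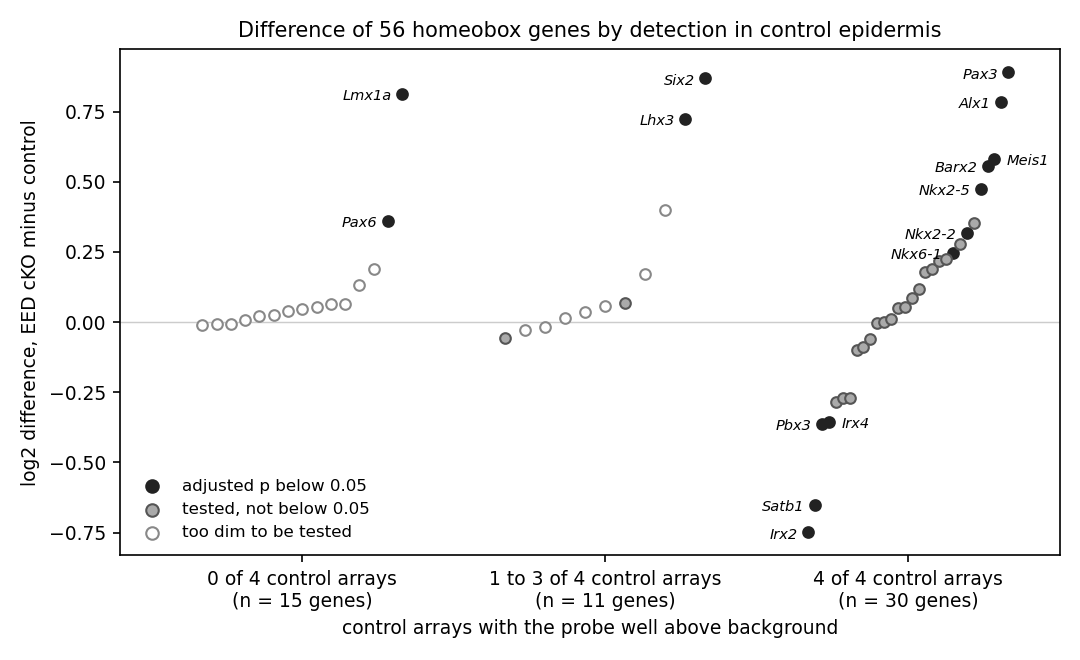
Log2 difference, EED cKO minus control (vertical axis), of the 56 homeobox genes by the number of control arrays on which their probe was well above background; within a class genes are ordered by their difference. Black, grey and open points mark genes with an adjusted p below 0.05, other tested genes and genes too dim to be tested. Most of the 15 genes at background in control lie close to 0, with Lmx1a at 0.81 and Pax6 at 0.36.

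Of the 15 genes at background in control, 12 were above background on none of the 8 arrays. They were Pax5, Lhx4, Lhx5, Lhx8, Six6, Nkx2-1, Nkx6-2, En1, Emx1, Barx1, Cdx2 and Gbx2, among them regulators of the eye (Six6), forebrain (Emx1), midbrain (En1), thyroid (Nkx2-1), gut (Cdx2) and B cells (Pax5). Their differences lay between -0.01 and 0.13, and with both genotypes below background no fold is given. Six4 was above background on 2 EED cKO arrays and no control array, with a difference of 0.19 in which the arrays overlapped. Pax9, a gene of tooth, palate and thymus development, was above background on 2 EED cKO arrays and 1 control array. Its ratios were -0.18, 0.19, -0.03 and 0.12 in EED cKO and -0.38, -0.53, -0.41 and -0.19 in control. The Pax9 arrays were separate by a narrow margin and the difference was 0.40, but the gene failed the filter on dim probes. Without the filter its adjusted p was 0.0193, and its Feature Extraction difference was 2.43. The other Pax9 probe, at background on all 8 arrays, gave 0.02. The 6 remaining untested genes, Pax2, Pax7, Lhx9, Six3, Irx6 and Emx2, were above background on 1 or 2 arrays of each genotype and differed by -0.03 to 0.17.

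Lmx1a was the one gene of the 56 with a probe above background throughout EED cKO and nowhere in control. It encodes a LIM homeodomain factor of the roof plate and of midbrain dopamine neurons. Its ratios were 0.78, 1.26, 0.93 and 0.85 in EED cKO and 0.15, 0.10, 0.20 and 0.12 in control. Every EED cKO array lay above every control array, and the 4 controls lay close together. The fitted difference was 0.81 ± 0.10 (SE; limma, adjusted p = 0.0012; exact permutation p = 0.0286, the smallest that 4 against 4 arrays allow). Since the control probe was at background, the fold itself is not measured. The sample channel gave 1.64-fold, with the control set to the dimmest signal counted as above background or its own signal where that was higher. For Lmx1a the control's own signal was used throughout. The 1.64-fold is therefore the sample-channel estimate, with its offset, and not a limit set by background. The reference RNA was at background for this probe on all 8 arrays as well. Lmx1a had a single probe. Its paralog Lmx1b, which acts in the limb and kidney, was above background on every array and differed by -0.06 ± 0.07 (SE; limma, adjusted p = 0.607).

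Of the 10 LIM genes 6 were tested, and Lmx1a and Lhx3 rose. Lhx3, a factor of the pituitary and of motor neurons, stood above background throughout EED cKO and on 3 control arrays. Its ratios were 0.71, 1.47, 1.06 and 1.04 in EED cKO and -0.13, 0.82, 0.21 and 0.48 in control. The lowest EED cKO array, replicate 1, lay below control replicate 2, so the groups overlapped. The difference was 0.72 ± 0.14 (SE; limma, adjusted p = 0.00682; exact permutation p = 0.0571). Without the dye term the adjusted p was 0.0532, and the Cy5 controls exceeded the Cy3 controls by 0.61. Lhx2, a factor of hair follicle progenitors and of the eye, was above background on every array, with control ratios of 2.86 to 3.51, and differed by 0.35 ± 0.12 (SE; adjusted p = 0.0683). It passed with the replicate number as a block (adjusted p = 0.0406) and with an offset of 10 (adjusted p = 0.0432). Lhx1 and Lhx6 were detected on every array and differed by 0.00, with standard errors of 0.09 and 0.07.

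Among the Pax genes, 4 of 8 were tested and 2 rose. Pax3, which specifies neural crest, melanocyte and muscle precursors, had the largest rise of the 56 genes in this fit. Its ratios were -0.10, -0.08, 0.16 and -0.31 in EED cKO and -0.95, -0.88, -0.81 and -1.26 in control. The groups did not overlap, and the probe was above background on all 8 arrays, so Pax3 was already measured in control epidermis. The difference was 0.89 ± 0.11 (SE; limma, adjusted p = 0.000907; exact permutation p = 0.0286), a 1.85-fold rise. A separate Pax3 probe also showed groups that did not overlap, with a difference of 0.68. Of the 6 melanocyte markers examined, all above background on every control array, none was called, and their mean ratio ran from 3.09 to 3.53 in EED cKO and from 2.83 to 3.38 in control. Of the 6 skeletal muscle markers 1 was tested and none was called, with Myod1 above background on 2 arrays of each genotype.

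Pax6, which acts in the eye, brain and pancreas, was above background on 3 EED cKO arrays and no control array. Its ratios were 0.03, -0.01, 0.18 and -0.02 in EED cKO and -0.16, -0.46, -0.23 and -0.43 in control. The groups did not overlap, with control replicate 1 close to the lowest EED cKO array. The difference was 0.36 ± 0.07 (SE; limma, adjusted p = 0.00681). The sample-channel estimate computed as for Lmx1a was 1.23-fold, again from the control's own signal. The other Pax6 probe, at background on all 8 arrays, gave 0.06. Pax1, a gene of the vertebral column and thymus, differed by 0.19 (adjusted p = 0.0816), and Pax8, of thyroid and kidney, by 0.01 (adjusted p = 0.948).

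Of the genes Six2 to Six6, 2 of 5 were tested and 1 rose. Six2, which maintains nephron progenitors, stood above background throughout EED cKO but on 2 control arrays only. Its ratios were 0.24, 0.71, 0.11 and 0.21 in EED cKO and -0.46, -0.69, -0.57 and -0.49 in control. The 4 EED cKO arrays were all above 0 and the 4 control arrays all below it, with replicate 2 the highest EED cKO array. The difference was 0.87 ± 0.13 (SE; limma, adjusted p = 0.00201; exact permutation p = 0.0286). The rise rested on 1 of the 2 Six2 probes: the other, dimmer one was above background on 3 EED cKO and 2 control arrays and gave 0.09 with overlapping groups. Six3, the neighbour of Six2 on chromosome 17 with no protein-coding gene between them in RefSeq, was too dim to be tested and differed by 0.01. Six5 had separate groups, at -1.11, -1.17, -0.99 and -0.87 in EED cKO against -0.87, -0.82, -0.59 and -0.72 in control, and a difference of -0.29 that missed the threshold (limma, adjusted p = 0.0557). It passed with the replicate block (adjusted p = 0.0228), with median centring (adjusted p = 0.0313) and with the Feature Extraction ratio (adjusted p = 0.0204).

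Of the 7 NK genes, 5 were tested and 3 rose, all 3 from probes above background on every array. Nkx2-5, a regulator of heart development, had ratios of -0.38, -0.03, -0.47 and -0.17 in EED cKO and -0.63, -0.73, -0.72 and -0.87 in control. The groups did not overlap, and the difference was 0.47 ± 0.10 (SE; limma, adjusted p = 0.0115; exact permutation p = 0.0286). It lost its call with median centring (0.37, adjusted p = 0.0587) and with the methods' unpaired test after Benjamini-Hochberg adjustment (adjusted p = 0.0752). Nkx2-2 and Nkx6-1, both of which act in ventral spinal cord and pancreatic islets, rose by less, by 0.32 (limma, adjusted p = 0.0207) and 0.25 (adjusted p = 0.0269), also with separate groups. The other, dimmer Nkx2-2 probe was above background on 1 EED cKO array and no control array, and gave 0.09 with overlapping groups. Each of these smaller rises lost its call in several fits that left out 1 array. For Nkx2-2 these were the fits without EED cKO replicate 3 or 4 or control replicate 2 or 4 (differences of 0.27 to 0.31, adjusted p up to 0.0704). For Nkx6-1 they were the fits without any 1 EED cKO array or control replicate 1 or 2 (0.22 to 0.25, adjusted p up to 0.093). The gene next to Nkx2-2 on chromosome 2, Pax1, was not called, as given above, and Nkx2-3 and Nkx3-2 differed by 0.05 and -0.06.

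Alx1, a paired-type factor of craniofacial mesenchyme, rose from a probe above background on all 8 arrays. Its ratios were 1.16, 1.66, 1.39 and 1.19 in EED cKO and 0.40, 0.59, 0.38 and 0.90 in control. The groups did not overlap, and the reference RNA was above background on 1 array only. The difference was 0.78 ± 0.12 (SE; limma, adjusted p = 0.00269; exact permutation p = 0.0286). On the sample channel alone it was 0.60 (adjusted p = 0.0319). In that channel the groups overlapped, with control replicate 4 at 6.99 and EED cKO replicate 4 at 6.84. The call was lost with the methods' unpaired test after Benjamini-Hochberg adjustment (adjusted p = 0.0611). Alx4 differed by 0.05 ± 0.10 (SE; adjusted p = 0.754). Prrx1 and Prrx2, factors of limb and dermal mesenchyme, were far below the reference in both genotypes, at -4.49 to -3.19, and differed by 0.09 and 0.22 with adjusted p of 0.545 and 0.15. Among 6 dermal fibroblast markers, all above background on every control array, Lum alone was called, at 0.50, and their mean ratio of -3.07 to -2.93 in EED cKO lay within the control range of -3.22 to -2.88.

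Barx2, which is expressed in surface epithelia and hair follicles, was the 1 gene called among the Msx, En, Emx, Barx, Gbx and Cdx genes, of which 5 of 11 were tested. Its ratios were 2.32, 1.82, 2.35 and 2.04 in EED cKO and 1.91, 1.18, 1.87 and 1.35 in control. The Cy3 arrays were higher than the Cy5 arrays in both genotypes, with a Cy5 minus Cy3 difference of -0.40 in EED cKO and -0.62 in control, and the groups were separate within each dye and overlapped over both. The difference was 0.56 ± 0.08 (SE; limma with the dye term, adjusted p = 0.00243; exact permutation p = 0.0857), and the adjusted p without that term was 0.0834. The other Barx2 probe, also above background on all 8 arrays, gave 0.11 with overlapping groups, so the probes of this gene disagree. Msx1 and Msx2, targets of BMP signalling in skin appendages, differed by 0.18 and 0.23 (adjusted p = 0.111 and 0.078), and Msx2 passed with the replicate block (adjusted p = 0.0404). En2 had separate groups but a difference of 0.12 (adjusted p = 0.227), and Cdx1 differed by 0.07.

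The Irx, Meis and Pbx genes, which encode homeodomain proteins with a loop extension of 3 amino acids, held 3 of the 4 falls. Of the 10 genes 9 were tested, 1 rose and 3 fell, and their median difference was -0.27. Irx2 had the largest fall of the 56 genes in this fit. Its ratios were 3.49, 3.82, 3.79 and 3.70 in EED cKO and 4.35, 4.81, 4.30 and 4.33 in control. The groups did not overlap, and control replicate 2 stood above the other controls. The difference was -0.75 ± 0.11 (SE; limma, adjusted p = 0.00256; exact permutation p = 0.0286), and it was between -0.83 and -0.64 when any 1 array was left out. A separate Irx2 probe also had groups that did not overlap and gave -0.66.

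Irx genes lie in clusters, and RefSeq places Irx1, Irx2 and Irx4 next to each other on chromosome 13 and Irx3, Irx5 and Irx6 next to each other on chromosome 8, with no protein-coding gene between them. Within the chromosome 13 cluster the genes did not move together. Irx1 had ratios of 1.84 to 2.35 in EED cKO and 1.40 to 2.34 in control, and its difference of 0.28 missed the threshold (adjusted p = 0.078). Irx4 had ratios of 3.59, 3.17, 3.77 and 3.66 in EED cKO and 4.03, 3.88, 3.93 and 3.79 in control, with EED cKO replicate 2 the lowest array and a narrow gap between the groups. Its fall was -0.36 ± 0.11 (SE; limma, adjusted p = 0.0423). That call was lost when any 1 array other than EED cKO replicate 4 was left out (-0.40 to -0.25, adjusted p up to 0.122), and with an offset of 10 in place of 50 it was -0.15 (adjusted p = 0.442). On chromosome 8, Irx3 differed by -0.27 (adjusted p = 0.124) and Irx5 by -0.10 (adjusted p = 0.743), and Irx6 was too dim to be tested.

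Pbx3, a partner of Hox proteins, had ratios of -1.05, -0.84, -1.05 and -0.85 in EED cKO and -0.58, -0.31, -0.92 and -0.53 in control. Control replicate 3 lay among the EED cKO arrays. The fall was -0.36 ± 0.09 (SE; limma, adjusted p = 0.021; exact permutation p = 0.0857), and a separate Pbx3 probe gave -0.39 with groups that did not overlap. The call was lost without EED cKO replicate 2, 3 or 4 or control replicate 2 (-0.37 to -0.31, adjusted p up to 0.0733). Pbx2 differed by -0.27 (adjusted p = 0.08) and passed by a small margin with the replicate block (adjusted p = 0.04996). Meis1, a further Hox partner, was the 1 gene of this family that rose, with ratios of -1.25, -0.65, -1.03 and -1.20 in EED cKO and -2.17, -0.98, -2.02 and -1.29 in control. The Cy5 controls of Meis1 exceeded the Cy3 controls by 0.96, and the groups overlapped. Its difference of 0.58 ± 0.17 (SE; limma, adjusted p = 0.0406; exact permutation p = 0.171) lost its call without EED cKO replicate 1, 2 or 3 or control replicate 1, 3 or 4 (0.46 to 0.59, adjusted p up to 0.117). Meis2 differed by -0.09 (adjusted p = 0.422).

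**Figure D3:**
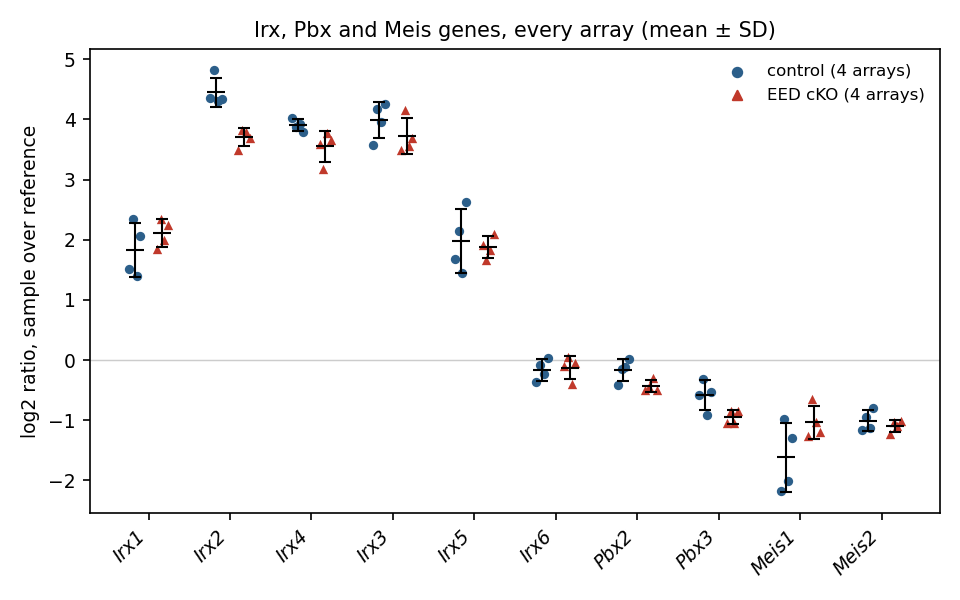
Log2 ratio of sample over reference (vertical axis) on the 4 control arrays (circles) and 4 EED cKO arrays (triangles) for the Irx, Pbx and Meis genes; bars show the mean ± SD. Irx2 and Irx4 are separate and lower in EED cKO, and the control arrays of Meis1 spread from -2.17 to -0.98.

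Satb1, which organises chromatin in the nuclei of thymocytes and epidermal progenitors, fell from a high ratio. Its ratios were 3.56, 3.66, 3.63 and 3.66 in EED cKO and 3.88, 4.54, 3.97 and 4.72 in control. The groups did not overlap, and the controls split by dye, with Cy5 arrays 0.70 above Cy3 arrays, whereas the EED cKO arrays lay close together. The difference was -0.65 ± 0.12 (SE; limma, adjusted p = 0.00668; exact permutation p = 0.0286). It was -0.73 to -0.55 when any 1 array was left out, and every such fit kept the call. With the Feature Extraction ratio it was -0.40 (adjusted p = 0.0711).

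The reference RNA was the same on all arrays, and its channel was compared between genotypes as a check. Of everything tested, 117 targets differed there at an adjusted p below 0.05, and 2 of these were homeobox genes. Irx4 was lower in the reference channel of the EED cKO arrays by -0.48 (limma, adjusted p = 0.0237) and Satb1 by -0.34 (adjusted p = 0.0219). The sample channel alone fell by 0.84 for Irx4 and 1.00 for Satb1 (limma, adjusted p = 0.00285 and 0.00327). The log2 ratio is sample minus reference, so a lower reference makes the fall in the sample channel larger than that in the ratio. The larger fall is therefore no separate evidence. For Irx2 the sample channel fell by 0.93 (limma, adjusted p = 0.000963). All 8 arrays were on 1 slide with the genotypes in separate rows, so slide row and genotype cannot be told apart.

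The size of the rises depended on how background was treated, most of all for probes near background in control or in the reference. The ratio that the Agilent Feature Extraction software computes after background subtraction, with no offset, put 6 of the 36 genes past both an adjusted p below 0.05 and 2-fold, all higher: Lmx1a, Pax6, Alx1, Six2, Nkx2-5 and Pax3. By that ratio 592 (2.55%) of everything tested were higher by this rule and 106 (0.457%) lower. An offset of 10 gave 5 genes, Lmx1a, Alx1, Six2, Lhx3 and Pax3, against 456 (1.97%) higher and 45 (0.194%) lower of everything tested. Pax3, whose probe was above background on all arrays, moved little, from 0.89 to 1.03 with an offset of 10 and 1.02 with the Feature Extraction ratio. Alx1 moved from 0.78 to 1.44 and 2.64, and Six2 from 0.87 to 1.44 and 2.28. For Lmx1a the fitted values were 0.81, 1.62 and 3.27 and for Pax6 0.36, 0.85 and 2.79. Both genes were at background in control, so none of these values measures the size of the rise. The sample-channel folds given above carry the offset as well. Lhx3 reached 1.88 by the Feature Extraction ratio without passing the test (adjusted p = 0.0623). Among the falls, Irx2 was -0.75, -0.66 and -0.73 and Pbx3 -0.36, -0.37 and -0.40. Satb1, at -0.65, -0.46 and -0.40, and Irx4, at -0.36, -0.15 and -0.09, became smaller.

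**Figure D4:**
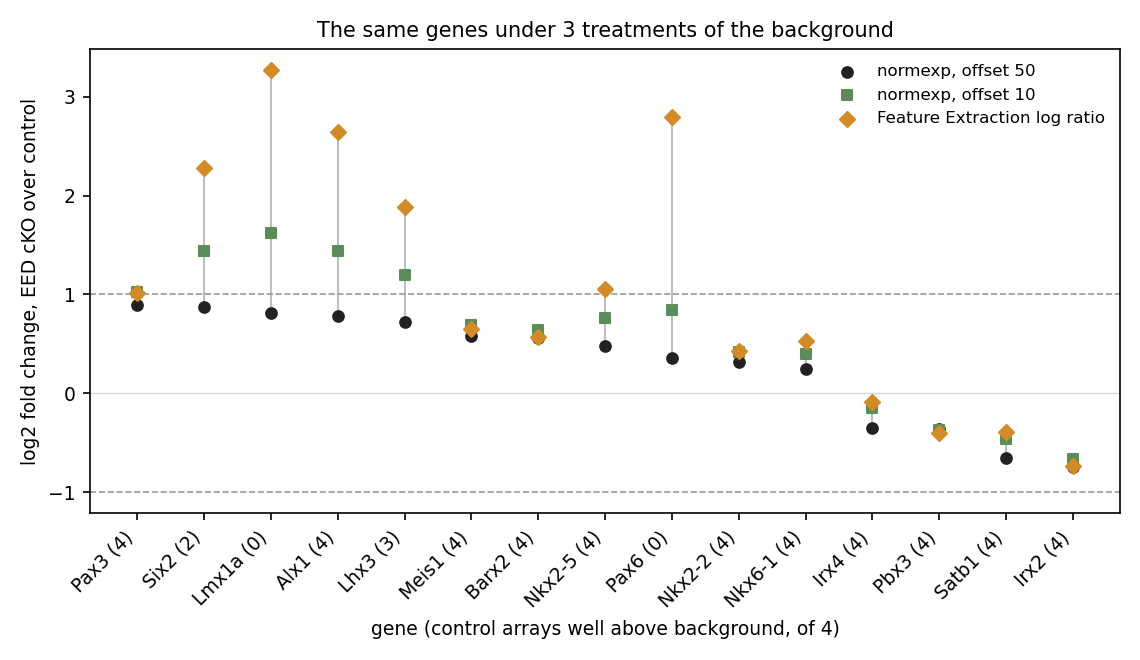
Fitted log2 fold change, EED cKO over control (vertical axis), of the 15 homeobox genes with normexp and an offset of 50 (circles), with an offset of 10 (squares) and with the Feature Extraction log ratio (diamonds); the number after each gene is how many of the 4 control arrays had the probe above background, and dashed lines mark 2-fold. The 3 treatments lie close together for Pax3 and Irx2 and far apart for Lmx1a, Pax6, Alx1 and Six2.

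Markers of other cells moved with genotype beside these genes. All 6 Merkel cell markers rose, by 0.47 for Krt18 to 1.12 for Krt20 among the 5 above background on some control array, and their mean ratio was -0.95 to -0.82 in EED cKO and -1.67 to -1.53 in control. Sox2 was at background on all control arrays and higher in EED cKO by at least 1.24-fold. Both tested markers of the 4 for endothelium rose, Pecam1 by 0.89 and Kdr by 0.62, with the list at 0.51 to 0.69 in EED cKO and 0.09 to 0.27 in control, and the other 2 were at background on every array. Among the 6 hair follicle markers 3 of 5 tested fell, Shh by 0.79, Gata3 by 0.52 and Edar by 0.50, with the list at 1.37 to 1.60 in EED cKO and 1.52 to 2.11 in control. Of 5 tested Schwann cell and neuron markers Tubb3 rose by 1.15 and Sox10 fell by 0.50, with the list at 0.04 to 0.49 in EED cKO and -0.04 to 0.33 in control, and of 3 tested immune markers Cd3e rose by 0.54, with the list at -0.46 to -0.26 and -0.62 to -0.39. The part of these cells in the differences of the homeobox genes was not tested.

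Of 119 further homeobox genes listed from general knowledge, without the Hox, Dlx, Pitx, Otx and Gsc genes, 115 were on the array and 61 were tested. In this list 4 passed both limits, all higher, against 1.11% of everything tested: Cers4, a ceramide synthase with a homeobox-like domain, by 1.71, Vax2 by 1.43, Lbx2 by 1.21 and Sebox by 1.16. At an adjusted p below 0.05 alone 18 rose and 6 fell, against 11.8% and 9.93% of everything tested and 11 and 4 of the 36 tested above. Their median difference was 0.07.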

How the data were processed

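Total RNA of newborn epidermis was hybridised with a common reference RNA to 8 SurePrint G3 Mouse GE 8X60K arrays, 4 per genotype with dyes swapped. The deposited scanner files hold spot intensity for both colours, a log10 ratio and flags, which the authors made with Agilent Feature Extraction 12.0.1.1, and the deposited value table holds log2 ratios. That table matches the scanner log10 ratio, turned to sample over reference on the log2 scale, to within 0.01 for all but 11% of values, which the scanner files list as a ratio of 0, and its column medians were 0.033 to 0.139. Median spot intensity was background-corrected (limma 3.58.1 in R 4.3.3, normexp, offset 50) and normalized by loess within each array. Of 29796 probes with a RefSeq accession, 28026 matched a symbol in RefSeq's GRCm38.p6 table. Each gene was read from its probe with the highest mean sample signal: of the 56 homeobox genes 42 had 1 probe and 14 had several. A target was tested when, in either genotype, its sample signal stood well above background on 3 or 4 arrays (23199 targets, of which 8226 had no symbol), and 19 missing values were filled. The fit was limma's lmFit and eBayes on genotype and dye, with Benjamini-Hochberg adjustment over everything tested, and exact permutation tests were two-sided over 70 splits of the arrays. The procedure was tested on simulated data. The study's methods used an unpaired t-test with a 2-fold limit, which was run as an alternative.

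The homeobox genes, the marker lists and the further homeobox genes were chosen with earlier results of these data known. All 56 genes may be named, and full statistics went to the 8 largest rises and 8 largest falls with an adjusted p below 0.05 and to genes above background on no control array but on all EED cKO arrays. Replicate numbers pair the arrays by correlation of their deviations (r = 0.49, 0.68, 0.33 and 0.36), though each number also shares a dye, and with dye removed r was 0.13 or 0.45. The number of arrays limits the precision. Whether the replicates came from separate mice is given only by their description as biological replicates. Alternatives covered background correction, normalization, filter, probe choice, dye, replicate block, weights, trend and leaving out each array. The sample channel alone and a covariate for Y-linked genes were added after seeing the data.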

Additional observations from a re-analysis of the deposited data

Results flagged for a closer look

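Among the 74 sets of 4 arrays examined, 1 held an array far from its group. For Irx2, control replicate 2 at 4.81 stood apart by Dixon's test from the other controls, at 4.30 to 4.35, and its gap to the nearest of them was 0.907 of the group's range. Chance flags about 1 in 20 such groups. Without that array the Irx2 difference stayed below 0, within the range of -0.83 to -0.64 given for leaving out any 1 array.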

How the results depend on the processing

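All 474 results of single genes over 25 alternatives, 8 of which left out an array, kept their direction. Part of this was fixed in advance. The fits without the dye term, with the replicate block or with the trend, and the t-tests, leave the difference itself unchanged in this balanced design. So do the fits with no filter or a stricter one. Quantile normalization of intensity between arrays changes no ratio, and the deposited table nearly repeats the Feature Extraction ratio. The genes had also been called on these same arrays. Pax3, Six2, Lmx1a and Irx2 kept an adjusted p below 0.05 under all 25 alternatives, which are not 25 separate checks. The count of the 56 genes past both limits, 0, became 3 without background correction, 5 with offset 10, 6 with the Feature Extraction ratio, 6 with the deposited table and 1 (Pax3) with the Y-linked covariate. The count at an adjusted p below 0.05, 15, became 8 without the dye term, 5 with the methods' t-test after Benjamini-Hochberg and 10 with the Y-linked covariate, which lost Nkx2-2, Nkx6-1, Meis1, Pbx3 and Irx4. With the replicate block it was 19, with 13 higher and 6 lower, adding Lhx2, Msx2, Six5 and Pbx2 and losing none. For the alternatives, the share of everything tested at an adjusted p below 0.05 alone was not computed. For the 119 further homeobox genes 4 became 7 without background correction, 8 with offset 10, 8 with the Feature Extraction ratio and 8 with the deposited table. For everything tested 283 became 501 with offset 10, 698 with the Feature Extraction ratio, 698 with the deposited table and 177 with the t-test after Benjamini-Hochberg, and median centring turned the split of 258 higher and 25 lower into 156 and 57. The median of genes detected on 4 control arrays, 0.07, became 0.019 with median centring and 0.12 on the sample channel. That of genes detected on none, 0.05, became 0.097 without background correction, 0.14 with offset 10, 0.64 with the Feature Extraction ratio and 0.48 with the deposited table. The cause of these shifts was not tested. Leaving out 1 array gave 0 to 0 genes past both limits, 10 to 15 at an adjusted p below 0.05, 3 to 4 further homeobox genes, 258 to 319 of everything tested, -1.54 to -1.39 for Eed, and medians of 0.034 to 0.12 and 0.032 to 0.065. Folds of probes near background are limited by signal over background.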
